A study of Mus musculus with 6 samples.

Results

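The genes described here encode the pore-forming subunits of the AMPA and NMDA receptors, the main fast glutamate receptors of the spinal cord. They were taken by name, 4 AMPA genes (Gria1 to Gria4) and 6 NMDA genes (Grin1, Grin2a to Grin2d and Grin3a), from 25576 genes listed above 0 in at least 1 bulk-seq library. All 10 were listed above 0 in every library, and all 10 passed the minimum mean of 0.5 FPKM, fragments scaled to exon length and to the number of mapped fragments, that 17088 genes passed. Bulk-seq was made from total RNA of whole spinal cord of FVB mice at postnatal day 4, with 3 libraries labelled SMA (mSmn-/-, hSMN22tg/0) and 3 labelled control (mSmn+/-, hSMN22tg/0). Both groups carried the human SMN2 transgene and at least 1 inactivated mouse Smn allele, so the controls were heterozygous carriers and not wild-type mice. The methods describe bulk-seq as a triplicate with a sample size of 1 per group. The libraries may therefore be technical replicates, and p-values then measure only the spread between these libraries.

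AMPA receptors are tetramers that open within milliseconds of glutamate release and carry most of the fast excitatory current onto spinal neurons, motor neurons included. The Gria2 subunit, once its transcript has been edited at the Q/R site, keeps calcium out of the pore. NMDA receptors need the obligatory subunit encoded by Grin1, which assembles with GluN2 subunits (Grin2a to Grin2d) that bind glutamate and set the channel's kinetics, or with GluN3 subunits such as that of Grin3a, which bind glycine and reduce calcium entry. They pass calcium when glutamate arrives while the membrane is depolarised.

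Smn1, the targeted gene, was listed at 10.4, 8.64 and 11.9 FPKM among controls and at 8.48, 9.30 and 11.1 FPKM among SMA libraries, in the order of replicates 1, 2 and 3, as throughout. These values overlapped between the groups (log2 fold change -0.09, with a standard error, SE, of 0.15, limma adjusted p = 0.819), and the log2 fold change was -0.20 without control replicate 2, described next. Values over the whole gene thus give no check of the genotype labels, and every direction below is between libraries as labelled.

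Control replicate 2 stood apart from the other 5 libraries. Of the hepatocyte list, all 16 genes were listed, and they summed to 27953 FPKM in control replicate 2 and to between 46.6 and 102.6 FPKM in the others. Alb, the serum albumin gene and the most abundant of them, was at 15895 FPKM there and between 24.6 and 56.2 FPKM elsewhere. The 9 erythroid genes listed of 10 summed to 18853 FPKM against 1115 to 1862 FPKM, with Hbb-bs, a beta-globin gene, highest at 7026 FPKM. The 7 neutrophil genes summed to 418 FPKM against 5.36 to 11.6 FPKM, with S100a8, a calcium-binding protein of neutrophils, at 205 FPKM. The 15 neuron markers went the other way. Their geometric mean was 73.5 FPKM in control replicate 2 and between 123 and 133 FPKM in the other libraries. Over genes, which are no independent replicates of one another, log2(FPKM + 1) of the other 5 libraries correlated with one another at a Pearson's r of at least 0.983, and control replicate 2 reached as little as 0.836.

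All 10 subunit genes had their lowest FPKM in control replicate 2, at between 0.576 (Grin2a) and 0.820 (Grin2d) of the mean of control replicates 1 and 3. The share of all genes tested that were lowest there is not given here, so this count is not read as particular to these genes. Summed FPKM of the 4 AMPA genes was 182 there, against 273 and 270 in control replicates 1 and 3 and 268, 286 and 283.5 in SMA replicates 1 to 3. For the 6 NMDA genes it was 136, against 203 and 216 in the other controls and 220.2, 225 and 224 in SMA replicates 1 to 3. How far the RNA of other cell types contributed to the low values of control replicate 2 was not tested, and fold changes are given with and without that library. Fewer cells of a type and less RNA per cell cannot be told apart in bulk tissue.

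**Figure D1:**
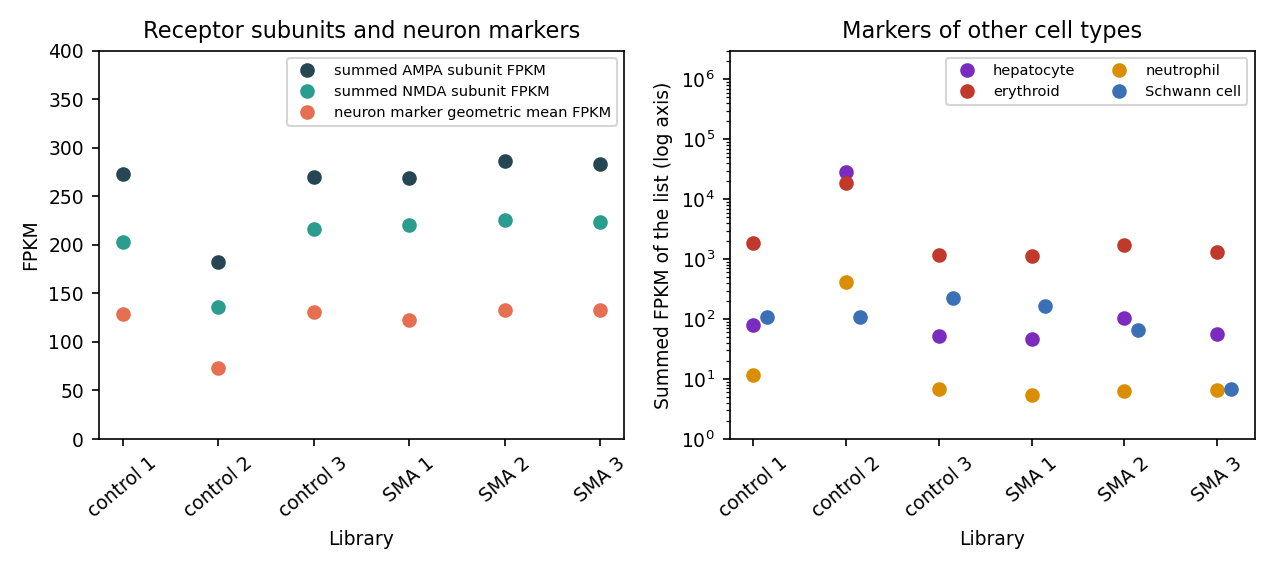
Left, summed FPKM of the 4 AMPA genes, summed FPKM of the 6 NMDA genes and geometric mean FPKM of the 15 neuron markers in each of the 6 libraries, 1 point per library. Right, summed FPKM of 4 marker lists in the same libraries on a log axis, where hepatocyte genes reach 27953 FPKM in control replicate 2 and at most 102.6 FPKM in the others, and Schwann cell genes fall to 6.72 FPKM in SMA replicate 3.

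Schwann cell markers also varied between libraries. The 5 Schwann cell genes summed to 109, 110 and 221 FPKM among controls and to 165, 66.0 and 6.72 FPKM among SMA libraries, lowest in SMA replicate 3. FPKM holds no counts, so the number of reads per library is unknown. With SMA replicate 1 set to 1.00, the most frequent ratio of low values (under 0.15 FPKM) put the depth of the controls at 1.13, 1.09 and 1.03 and that of the other two SMA libraries at 1.02 and 1.01. The numbers of genes above 0 were 21418, 22161 and 21197 among controls and 22237, 22201 and 22296 among SMA libraries, so the 2 measures did not order the libraries alike. The part of depth in the values was not tested.

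Among the 10 genes, Gria2 had the highest level, at 124.6, 89.6 and 128 FPKM among controls and at 129, 134 and 133 FPKM among SMA libraries. Gria4, which encodes another AMPA subunit, followed at a mean of 67.8 FPKM over the 6 libraries, and the ratio of Gria2 to Gria4 within a library lay between 1.63 and 1.94. Grin1 had a mean of 66.6 FPKM and could not be ranked against Gria4, since Gria4 was higher in 3 of 6 libraries. Grin2b (mean 53.1 FPKM) was below Grin1 and above Grin3a (mean 40.6 FPKM) in 6 of 6 libraries. Grin3a and Gria1 (mean 39.7 FPKM) differed by less than their spread, with Grin3a higher in 4 of 6 libraries. Gria3 (mean 30.1 FPKM) was above Grin2a (mean 22.5 FPKM) in 6 of 6 libraries, and Grin2a was above Grin2d (mean 20.4 FPKM) in 5 of 6. Grin2c came last at a mean of 0.706 FPKM, and Grin2d exceeded it by between 23.2 and 36.8 times within a library. Grin2c encodes the GluN2 subunit best known from cerebellar granule cells. All of these ratios are of FPKM within a library and were not tested.

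**Figure D2:**
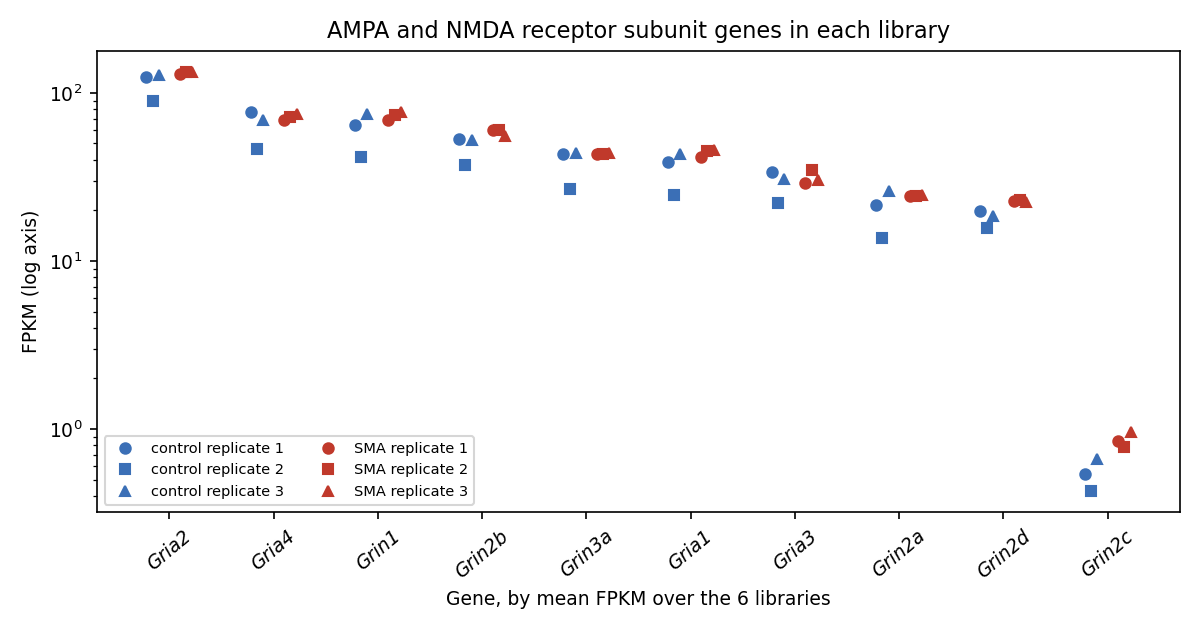
FPKM of each of the 10 subunit genes on a log axis, ordered by mean FPKM, with 1 point per library (control in blue, SMA in red; circle, square and triangle for replicates 1, 2 and 3). The squares of control replicate 2 are the lowest point of every gene, and Grin2c lies far below the other 9 genes at between 0.43 and 0.96 FPKM.

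Over all 6 libraries no gene of the 17088 tested passed an adjusted p of 0.05 in limma (0.0%), and the 10 subunit genes had adjusted p-values from 0.683 to 0.761. Their log2 fold changes, SMA against control on the log2(FPKM + 1) scale, lay between 0.13 and 0.34 with a median of 0.28, where the median of all genes tested was 0.04 and 58.0% of them were positive. At an unadjusted p under 0.05, 1 of the 10, Grin2d, was higher and 0 were lower, where 581 (3.4%) of all genes tested were higher and 409 (2.39%) lower. Leaving out SMA replicate 1, 2 or 3, rescaling to the same total FPKM or adding a replicate block brought that count of 1 to 0. Without control replicate 2, 8 of the 10 genes were higher, the median of the 10 was 0.07, and the median of all 16574 genes tested was 0.00, with 50.4% of them positive. There 2 of the 10, Grin2b and Grin2d, were higher at an unadjusted p under 0.05, and 0 were lower, where 874 genes (5.27%) were higher and 862 (5.2%) lower. In that comparison 2 of all genes tested (0.0121%) passed an adjusted p of 0.05, Snora74a and Rpph1, both noncoding RNA genes named after their values were seen. With FPKM scaled to the geometric mean of the neuron markers, all 6 libraries included, the median of the 10 was 0.04, that of all genes moved to -0.19, and 0 of the 10 had an unadjusted p under 0.05. Under this scaling 6 of the 10 were higher, and 17.0% of all genes tested were. These values depended on control replicate 2. With the same scaling and without that library, added after the data had been seen, the median of the 10 was 0.07. That of all genes was then 0.00, and 50.2% of them were positive.

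The 3 libraries labelled SMA all lay above the 3 labelled control for 4 of the 10 genes, Gria2, Grin2b, Grin2c and Grin2d. Among all genes tested, 1757 (10.3%) had the SMA libraries above and 1140 (6.67%) had them below. For the same 4 genes the SMA libraries lay above control replicates 1 and 3 alone, where 2351 genes (14.2%) had them above and 2302 (13.9%) below. An exact two-sided permutation test of 3 libraries against 3 cannot give a p below 0.1, so it could not reach 0.05 for any gene. All 4 of these genes had that smallest p, and the other 6 had exact permutation p-values from 0.2 to 0.7.

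**Figure D3:**
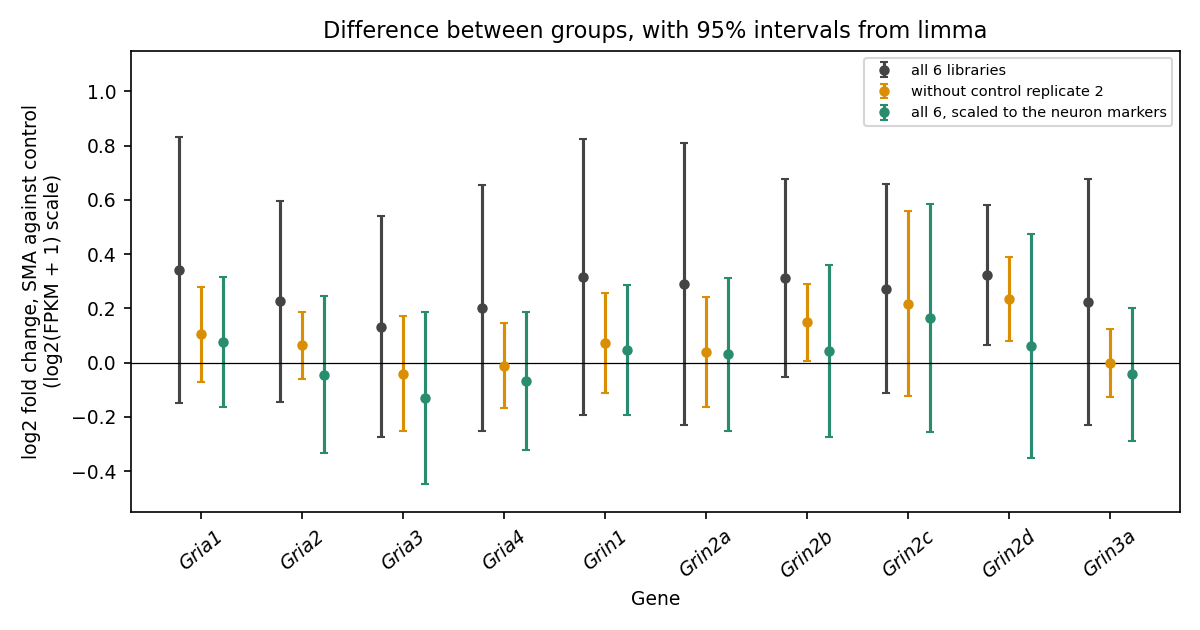
Log2 fold change of each subunit gene between SMA and control libraries with its 95% interval from limma, over all 6 libraries (grey), without control replicate 2 (orange) and with FPKM scaled to the neuron markers (green). Most intervals hold 0 in each setting, those of Grin2d over 6 libraries (0.06 to 0.58) and without control replicate 2 (0.08 to 0.39) and that of Grin2b without control replicate 2 (0.01 to 0.29) do not, and the orange estimates are lower than the grey for all 10 genes and below 0 for Gria3 and Gria4.

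Grin2d encodes the GluN2 subunit with the slowest deactivation, which is prominent in the brainstem and spinal cord of young animals. It lies on chromosome 7 from 45832483 to 45866681 (ENSMUSG00000002771, mm10, spans as the files give them). It was listed at 19.8, 15.8 and 18.6 FPKM among controls and at 22.8, 23.1 and 22.3 FPKM among SMA libraries. The SMA libraries were close together and above every control library. The mean was 18.1 ± 2.08 FPKM (SD, n = 3) in control and 22.8 ± 0.413 FPKM (SD, n = 3) in SMA libraries. The log2 fold change was 0.32 (SE 0.11, 95% interval 0.06 to 0.58, limma adjusted p = 0.683). Without control replicate 2 it was 0.23 (SE 0.07, limma adjusted p = 0.360, the lowest over all alternatives, which reached 0.907), and against the neuron markers it was 0.06 (SE 0.17). With both, that is scaled to the neuron markers and without control replicate 2, it was 0.23. The GENCODE M21 span of Grin2d reaches further and overlaps Kdelr1, a protein-coding gene on the opposite strand listed at between 25.8 and 32.9 FPKM, while the span in the files does not overlap it. The libraries were strand-specific, and whether strand was used in computing FPKM is not given in the sources used here.

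Grin2b encodes the GluN2 subunit that predominates before birth and in early postnatal neurons, and it lies on chromosome 6 from 135713233 to 136175664 (ENSMUSG00000030209). It was listed at 53.1, 37.3 and 52.4 FPKM among controls and at 60.0, 60.3 and 55.5 FPKM among SMA libraries. The lowest SMA library exceeded the highest control library by a margin smaller than the spread among SMA libraries. The log2 fold change was 0.31 (SE 0.15, limma adjusted p = 0.683) and without control replicate 2 it was 0.15 (SE 0.06, limma adjusted p = 0.456). Against the neuron markers it was 0.04 (SE 0.13). With both, the log2 fold change of Grin2b was 0.15 (SE 0.08), and its unadjusted p was not under 0.05. Its span overlaps Gm26653, an antisense gene listed at between 0.94 and 2.30 FPKM.

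Grin2c, on chromosome 11 from 115249169 to 115267243 (ENSMUSG00000020734), was listed at 0.54, 0.43 and 0.67 FPKM among controls and at 0.85, 0.78 and 0.96 FPKM among SMA libraries. The groups did not overlap, at a level near the filter, where the log2(FPKM + 1) scale understates a fold. The log2 fold change was 0.27 (SE 0.16, limma adjusted p = 0.683) over 6 libraries, 0.59 with a pseudocount of 0.1 in place of 1, and 0.22 (SE 0.15, limma adjusted p = 0.641) without control replicate 2.

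Gria2 lies on chromosome 3 from 80681450 to 80802835 (ENSMUSG00000033981). Its 3 SMA libraries lay above all controls by a narrow margin, 129 FPKM in SMA replicate 1 against 128 FPKM in control replicate 3. The log2 fold change was 0.23 (SE 0.16, limma adjusted p = 0.683), 0.06 without control replicate 2 (SE 0.05, limma adjusted p = 0.703) and -0.04 against the neuron markers. With both, it was 0.06.

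The groups overlapped for the other 6 genes. Gria1, which encodes a subunit whose phosphorylation and trafficking accompany synaptic strengthening, was at 38.5, 24.6 and 43.2 FPKM among controls and at 41.2, 45.1 and 45.6 FPKM among SMA libraries. Its log2 fold change was 0.34 (SE 0.21) and came to 0.11 (SE 0.07) without control replicate 2. Grin1 was at 64.7, 41.5 and 74.3 FPKM among controls and at 68.7, 73.6 and 76.8 FPKM among SMA libraries. For the obligatory NMDA subunit the difference was therefore 0.32 on the log2 scale (SE 0.21) and 0.07 (SE 0.08) without control replicate 2. Grin2a, whose subunit gains on Grin2b during postnatal development of the forebrain, had a log2 fold change of 0.29 over 6 libraries and 0.04 without control replicate 2. Leaving out control replicate 3 moved the values up, to 0.49 for Grin1, 0.48 for Grin2a, 0.50 for Gria1 and 0.34 for Grin3a. For Gria3, Gria4 and Grin3a the log2 fold changes were 0.13, 0.20 and 0.22 over 6 libraries. Without control replicate 2 they were -0.04, -0.01 and 0.00, and against the neuron markers -0.13, -0.07 and -0.04. Grin3a was between 43.0 and 43.7 FPKM in the 5 libraries other than control replicate 2, where it was at 26.9 FPKM. Its span holds Ppp3r2, a gene on the same strand listed at between 1.49 and 2.53 FPKM.

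The promoters of Gria2, Grin2c and Grin2d are shown because the groups did not overlap for these genes. RefSeq promoters (GRCm38.p6, 250 bases before to 50 bases after the start, minus strand for these 3 genes, written 5′ to 3′) were matched by symbol for 5 of the 10 genes, Gria2, Gria4, Grin1, Grin2c and Grin2d. They lie at chr3:80802786-80803085 (Gria2), chr11:115267194-115267493 (Grin2c) and chr7:45866632-45866931 (Grin2d), and capitals mark CG dinucleotides.
Gria2: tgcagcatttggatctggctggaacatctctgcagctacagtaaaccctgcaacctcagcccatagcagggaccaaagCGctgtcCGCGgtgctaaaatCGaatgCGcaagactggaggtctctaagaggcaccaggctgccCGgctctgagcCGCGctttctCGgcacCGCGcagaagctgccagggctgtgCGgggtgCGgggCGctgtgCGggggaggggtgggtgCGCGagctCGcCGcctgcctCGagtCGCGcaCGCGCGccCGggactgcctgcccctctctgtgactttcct
Grin2c: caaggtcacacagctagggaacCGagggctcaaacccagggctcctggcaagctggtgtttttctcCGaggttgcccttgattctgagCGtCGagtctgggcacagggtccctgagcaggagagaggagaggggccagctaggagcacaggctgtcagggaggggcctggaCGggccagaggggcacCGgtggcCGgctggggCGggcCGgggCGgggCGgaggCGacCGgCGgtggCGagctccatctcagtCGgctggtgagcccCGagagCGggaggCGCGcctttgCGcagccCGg
Grin2d: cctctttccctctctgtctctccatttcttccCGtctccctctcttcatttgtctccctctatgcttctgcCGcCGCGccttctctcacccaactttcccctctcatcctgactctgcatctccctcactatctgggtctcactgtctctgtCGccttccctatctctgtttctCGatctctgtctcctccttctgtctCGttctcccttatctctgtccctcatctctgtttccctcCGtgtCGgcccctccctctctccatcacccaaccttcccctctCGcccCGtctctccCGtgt

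All 5 promoters held more CG dinucleotides than the median of 7 over all 32851 promoters of the table. The number was 33 for Grin1, 26 for Gria2, 22 for Grin2c, 17 for Gria4 and 12 for Grin2d. The Grin2d promoter differed from the other 4 in its bases, 83.0% of which were C or T on the strand shown, against 41.0% to 59.7% in those 4. The median over all promoters was 49.7%, and 4 of them (0.0122%), Grin2d included, reached 83.0%. The letters GGGCGG, searched on both strands, were found 3 times for Grin2c and 1 time for Grin1, and in 35.7% of all promoters. The letters TATAAA, also searched on both strands, were found in none of the 5 and in 13.6% of all promoters. These matches describe the letters of each window, and no measurement in these data bears on binding there.

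Composition was compared within libraries, since ratios between these genes do not move when RNA that lacks them is added. Gria2 held 45.6%, 49.1% and 47.3% of the summed AMPA subunit FPKM among controls and 48.1%, 46.7% and 47.0% among SMA libraries. The mean share was 47.3% ± 1.76 (SD, n = 3) in control and 47.3% ± 0.721 (SD, n = 3) in SMA libraries. The difference, SMA minus control, was -0.05 percentage points and was smaller than the spread between libraries. It was 0.84 points without control replicate 2 and -0.92 points without control replicate 1. Gria4 ranged from 25.3% to 28.0% over the 6 libraries, Gria1 from 13.5% to 16.1% and Gria3 from 10.6% to 12.3%. The groups overlapped for all 4 shares. FPKM per gene does not show editing of the Q/R site or the flip and flop exons.

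Among the GluN2 genes, Grin2b held between 53.5% and 55.8% of the summed FPKM, Grin2a between 20.5% and 26.8% and Grin2d between 19.0% and 23.4%. The groups overlapped for these 3 shares. Over 6 libraries the mean share of Grin2d was 21.1% ± 2.21 (SD, n = 3) in control and 21.3% ± 0.236 (SD, n = 3) in SMA libraries. Its highest share was in control replicate 2 (23.4%), against 20.8% and 19.0% in control replicates 1 and 3, and without control replicate 2 all 3 SMA libraries (21.1%, 21.3% and 21.6%) lay above the remaining controls. The difference, SMA minus control, was 1.39 percentage points there and -0.81 points without control replicate 3. Grin2c held 0.571%, 0.636% and 0.681% among controls and 0.789%, 0.723% and 0.927% among SMA libraries. It was the only one of the 12 composition measures whose groups did not overlap over 6 libraries (p = 0.1 in the exact permutation test, the lowest it can give here, and 0.9 after adjustment over the 12). The adjusted p was 0.9 or 1 for each of the 12 measures.

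**Figure D4:**
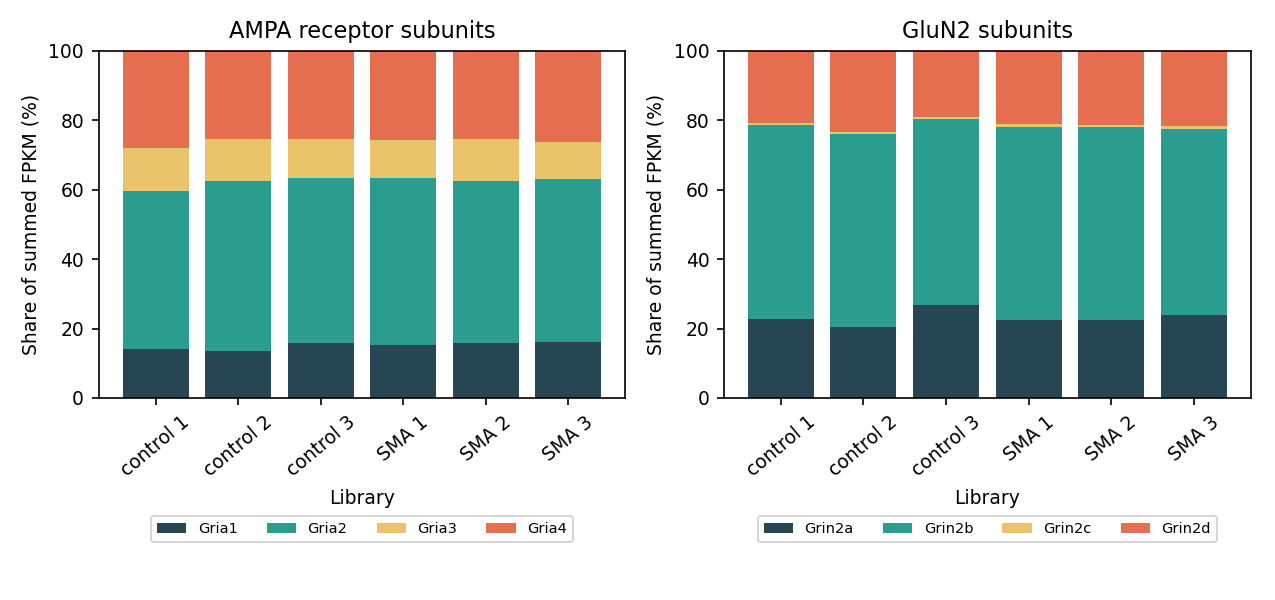
Share of each gene in the summed FPKM of Gria1 to Gria4 (left) and of Grin2a to Grin2d (right) in each library, in percent, with stacked bars that start at 0 and reach 100%. Gria2 takes between 45.6% and 49.1% and Grin2b between 53.5% and 55.8% of the bars in all 6 libraries, control replicate 2 included.

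The log2 ratio of summed AMPA to summed NMDA FPKM was 0.43, 0.43 and 0.32 among controls and 0.29, 0.34 and 0.34 among SMA libraries, with overlapping groups and a difference of -0.07. Grin1 relative to its partners (summed Grin2 and Grin3a FPKM) had a log2 ratio of -1.07 ± 0.13 (SD, n = 3) in control and -1.04 ± 0.10 (SD, n = 3) in SMA libraries. Relative to the neuron markers, summed AMPA FPKM had log2 ratios of 1.09, 1.31 and 1.05 among controls and 1.13, 1.10 and 1.09 among SMA libraries. Control replicate 2 was thus lowest in AMPA gene FPKM and highest in the ratio of these genes to the neuron markers. Summed NMDA FPKM had log2 ratios to the neuron markers of 0.66, 0.88 and 0.73 among controls and 0.84, 0.76 and 0.75 among SMA libraries, again highest in control replicate 2. Without that library, both ratios were higher in all 3 SMA libraries than in both controls, by 0.04 for AMPA and 0.09 for NMDA genes between means on the log2 scale. The margins were narrow, 1.092 in SMA replicate 3 against 1.089 in control replicate 1 for AMPA genes. For NMDA genes they were 0.753 in SMA replicate 3 against 0.725 in control replicate 3. Of all genes tested, 14.2% had FPKM in the SMA libraries above these controls.

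AMPA receptors reach the synapse with auxiliary subunits that alter their gating and anchoring. Of 19 auxiliary and assembly genes, all 19 were tested, 2 were higher and 0 lower at an unadjusted p under 0.05, where 3.4% of all genes tested were higher and 2.39% lower, and 0 passed an adjusted p of 0.05. These 2 were the only higher calls in the 5 lists of receptor-related genes described here. Over the 5 lists the higher calls numbered 0 after rescaling to the same total FPKM, under neuron scaling and without SMA replicate 2 or 3, and 1 without SMA replicate 1. Of all genes tested, 1.98%, 0.221%, 1.49%, 1.25% and 1.39% were higher in these 5 settings. Of the 73 list genes tested, 6, 5 and 18 were higher without control replicate 1, 2 and 3, where 6.03%, 5.27% and 6.07% of all genes tested were. In the second of these 3 settings 1 list gene was lower, where 5.2% of all genes tested were. The median log2 fold change of the 19 genes was 0.25, where that of all genes was 0.04, and 0.05 without control replicate 2, where that of all genes was 0.00. All 19 were lowest in control replicate 2, and the share of all genes tested that were lowest there is not given here. The 2 genes were Shisa6 and Shisa7, which encode membrane proteins of a family that binds AMPA receptors. Shisa6 was at 11.7, 8.35 and 11.8 FPKM among controls and at 13.6, 15.7 and 14.6 FPKM among SMA libraries, with no overlap between the groups. Its log2 fold change was 0.44 (SE 0.15, limma adjusted p = 0.683) and 0.29 without control replicate 2 (limma adjusted p = 0.360). Shisa7 was at 18.4, 15.8 and 22.3 FPKM among controls and at 23.4, 26.8 and 22.7 FPKM among SMA libraries. Its groups did not overlap either, and 10.3% of all genes tested had the SMA libraries above all controls. For this gene the log2 fold change was 0.36, and 0.25 without control replicate 2. Cacng3 and Shisa9, with the next smallest unadjusted p-values, had log2 fold changes of 0.37 and 0.29, and of 0.19 and 0.11 without control replicate 2. The 4 most abundant genes of the list were Olfm1 (log2 fold change 0.39), Cnih2, a cornichon that slows AMPA receptor deactivation (0.38), and the transmembrane AMPA receptor regulatory protein genes Cacng4 (0.29) and Cacng7 (0.25). Without control replicate 2 these 4 had log2 fold changes between 0.07 and 0.11.

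Scaffold proteins of the postsynaptic density, kinases and trafficking factors made up a list of 37 genes, all tested. At an unadjusted p under 0.05, 0 were higher and 0 lower, and 0 passed an adjusted p of 0.05. The median log2 fold change was 0.22, and 0.05 without control replicate 2, where 1 gene, Nptxr, was higher at an unadjusted p under 0.05. In that comparison 5.27% of all genes tested were higher. Nptxr, a receptor for the pentraxins that cluster AMPA receptors, was at 53.4, 30.4 and 49.6 FPKM among controls and at 57.9, 58.8 and 59.6 FPKM among SMA libraries (log2 fold change 0.43, and 0.19 without control replicate 2). Dlg4, which encodes the scaffold PSD-95, was at 114.8, 64.1 and 103 FPKM among controls and at 116, 117.5 and 120.1 FPKM among SMA libraries. Both genes were above all controls in all 3 SMA libraries. So were Pick1, Dlgap1, Shank1, Camk2a, Camk2d, Nptx1 and Lrrtm4 of this list. Of all genes tested, 10.3% had the SMA libraries above and 6.67% had them below. Without control replicate 2, all 3 SMA libraries lay below the other controls for Nsf, Homer1, Nptx2 and Nlgn3. Of all genes tested, 13.9% had them below there and 14.2% above. Dlg4 had a log2 fold change of 0.37, or 0.12 without control replicate 2. Nsf, an ATPase that binds the GluA2 tail, was the most abundant gene of the list. It had a log2 fold change of 0.25 over 6 libraries and -0.10 without control replicate 2. Among the kinase genes, Camk2d, Camk2b and Camk2a had log2 fold changes of 0.27, 0.31 and 0.31, and of 0.10, 0.10 and 0.13 without control replicate 2. Neto2 (0.35) and Pick1 (0.20), the latter a PDZ protein that binds GluA2, completed the genes with the smallest unadjusted p-values, and both had a log2 fold change of 0.16 without control replicate 2.

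The 3 genes of the RNA editing enzyme family were tested and 0 had an unadjusted p under 0.05. Adarb1 encodes ADAR2, which edits the Q/R site of Gria2 transcripts. It was at 23.7, 17.5 and 27.9 FPKM among controls and at 25.7, 28.2 and 28.6 FPKM among SMA libraries, and the groups overlapped. Its log2 fold change was 0.27 (SE 0.17), and 0.09 without control replicate 2. Adar and Adarb2 had log2 fold changes of 0.27 and 0.37, and of 0.12 and 0.14 without control replicate 2. The median of this list was 0.27, and 0.12 without control replicate 2.

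Of the 8 kainate, delta and remaining NMDA receptor genes, 7 were tested, 0 had an unadjusted p under 0.05, and the median log2 fold change was 0.27, or 0.06 without control replicate 2. Grin3b, the other GluN3 gene, did not pass the filter at a mean of 0.12 FPKM. Grik2, a kainate subunit gene, was the most abundant at 64.2, 40.5 and 56.1 FPKM among controls and 70.2, 68.1 and 64.1 FPKM among SMA libraries (log2 fold change 0.35, and 0.17 without control replicate 2). Grid1, which encodes a delta receptor, was above all controls in all 3 SMA libraries (log2 fold change 0.41). Of the genes tested, Grik5 was too, as were 10.3% of all genes tested. Grid1 was the 1 gene of this list with an unadjusted p under 0.05 without control replicate 2 (0.17). In that comparison 5.27% of all genes tested were higher. Grik5 and Grik1 both had a log2 fold change of 0.27, and of 0.10 and 0.06 without control replicate 2. Of the 8 metabotropic glutamate receptor genes, 7 were tested, 0 had an unadjusted p under 0.05, and the median was 0.33, or 0.10 without control replicate 2. Grm5, which couples to calcium release, was the most abundant of them, with a log2 fold change of 0.27, or 0.01 without control replicate 2. Grm3, Grm7 and Grm4 had log2 fold changes of 0.25, 0.35 and 0.33, and Grm8 of 0.40. Without control replicate 2 those of Grm3, Grm7 and Grm4 were 0.00, 0.12 and 0.10. In that comparison Grm8 was higher (0.21) and Grm2 lower (-0.43) at an unadjusted p under 0.05, and Grm2 is named because of this count. Of all genes tested, 5.27% were higher and 5.2% lower there. Over the 5 lists, 73 of 75 genes were tested and 70 had a positive log2 fold change, where 58.0% of all genes tested were positive. Of the 73, 71 were lowest in control replicate 2, and the share of all genes lowest there is not given here. Without control replicate 2, 53 of the 73 were positive, where 50.4% of all genes were. In none of the 5 lists did a gene pass an adjusted p of 0.05 in limma, with or without control replicate 2.

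The neuron markers, a list that shares no gene with the receptor subunits, had a median log2 fold change of 0.29 over 6 libraries and 0.02 without control replicate 2, beside 0.28 and 0.07 for the 10 subunit genes. Over 6 libraries 0 of the 15 had an unadjusted p under 0.05. Without control replicate 2, 2 were higher (Rbfox3 and Syt1) and 2 lower (Syp and Eno2). Of all genes tested, 5.27% were higher and 5.2% lower there. Stmn2, the most abundant of the 15, was at 459, 235 and 416 FPKM among controls and at 426, 468 and 459 FPKM among SMA libraries. For the 7 genes of excitatory and inhibitory neurons, of which 6 were tested, the medians were 0.30 and 0.06, and Slc17a6, the vesicular glutamate transporter of spinal excitatory neurons, was the most abundant at between 65.9 and 76.1 FPKM outside control replicate 2 and 38.3 FPKM in it. Slc17a7 did not pass the filter. Without control replicate 2, Slc32a1 was higher and Slc6a5 lower at an unadjusted p under 0.05, where 5.27% of all genes tested were higher and 5.2% lower. The 5 motor neuron genes tested of 6 had medians of -0.01 and -0.20, with Prph, an intermediate filament, at 34.7, 23.5 and 53.5 FPKM among controls and 32.7, 35.4 and 32.6 FPKM among SMA libraries. Their log2 fold changes with and without control replicate 2 differed in sign. Slc18a3 had 0.45 and 0.20, Chat 0.16 and 0.02, Isl1 -0.06 and -0.20, Slc5a7 -0.01 and -0.34, and Prph -0.07 and -0.35. Without that library Slc5a7 was lower at an unadjusted p under 0.05, as were 5.2% of all genes tested. The 3 sensory ganglion genes tested of 8 had medians of 0.15 and -0.09, and their most abundant gene was Calca. Calca had a log2 fold change of -0.30, and of -0.67 without control replicate 2, where it was lower at an unadjusted p under 0.05. Neuronal lists thus did not share 1 direction without control replicate 2, and their part in the values of the subunit genes was not tested.

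Of the glial and vascular lists, the 6 endothelial genes summed to 51.2, 69.3 and 59.0 FPKM among controls and to 44.5, 36.0 and 37.7 FPKM among SMA libraries. In this list 3 genes, Cldn5, Pecam1 and Tek, were lower at an unadjusted p under 0.05 and 0 higher, both over 6 libraries and without control replicate 2. Of all genes tested, 2.39% were lower and 3.4% higher over 6 libraries, and 5.2% and 5.27% without control replicate 2. The median log2 fold change of the list was -0.56, or -0.46 without control replicate 2. Cldn5, of endothelial tight junctions, was the most abundant, with a log2 fold change of -0.58 (SE 0.12, limma adjusted p = 0.683) and of -0.68 without control replicate 2 (limma adjusted p = 0.108). The 8 oligodendrocyte genes had medians of -0.30 and -0.44 with and without control replicate 2 (Mbp most abundant), the 7 oligodendrocyte precursor genes of 0.12 and -0.08 (Olig1) and the 8 microglia genes of -0.05 and -0.04. Among the 8 astrocyte genes, with medians of 0.07 and 0.01, Aldoc was higher and 0 genes were lower at an unadjusted p under 0.05 over 6 libraries, and Aldoc was higher and Fabp7 and Aqp4 lower without control replicate 2. Fabp7, the most abundant, had a log2 fold change of -0.30, or -0.50 without control replicate 2. The 5 Schwann cell genes had medians of -0.99 and -1.08. Those of the hepatocyte, erythroid and neutrophil lists were -2.38, -1.53 and -1.79 over 6 libraries and 0.17, -0.29 and -0.46 over the 13, 7 and 3 genes still tested without control replicate 2. Skeletal muscle genes summed to at most 6.46 FPKM, with Acta1 the most abundant, a median of 0.40 over the 3 genes tested and, without control replicate 2, of 0.65 over 2. The part of these cell types in the subunit genes' values was not tested.

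The 5 genes whose log2(FPKM + 1) was most like the mean of the 10 subunit genes over the 6 libraries, of 17078 compared, were Fam120b, Cplx2, Casc4, Slc32a1 and 6330403K07Rik, with Pearson's r between 0.9995 and 0.9998. Cplx2 encodes complexin 2 of the presynaptic release machinery, and Slc32a1 the vesicular transporter of GABA and glycine. All 5 were lowest in control replicate 2, and r over the other 5 libraries was between 0.989 and 0.997. A total of 196 genes had an r above 0.99. Slc32a1 was at 39.2, 19.5 and 41.6 FPKM among controls and at 44.1, 46.4 and 46.7 FPKM among SMA libraries. These correlations describe 6 libraries, were chosen as the highest of many and carry no test.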

How the data were processed

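Total RNA of spinal cord was depleted of ribosomal RNA and made into strand-specific libraries. The authors deposited FPKM for each library, and the submitters' processing notes name HISAT2, Cufflinks and the build mm10. Read counts, on which the methods describe a comparison with DESeq, were not used here. A gene absent from a file was set to 0. Groups and replicate numbers were taken from the sample titles. Where the mean reached 0.5 FPKM, a gene was tested on log2(FPKM + 1) with limma 3.58.1 (lmFit, eBayes with trend, R 4.3.3). Its two-sided p-values had the Benjamini-Hochberg adjustment over every gene tested. Single values were compared with exact two-sided permutation tests (scipy 1.17.1), adjusted over the 12 composition measures. The procedure was tested on simulated data whose means and spread were taken without control replicate 2. That simulation therefore does not show how the fit behaves with that library included. Depth in reads is unknown, so no interval of counting error was given. Alternatives were another pseudocount, filters, scalings, the replicate number as a block and leaving out each library. Scaling to the neuron markers together with leaving out control replicate 2 was added after the data had been seen. The members and lists were chosen with earlier results of these data known. Named are the 10 subunit genes, Smn1, the 4 genes of each list with the highest mean FPKM and at most 4 with the smallest unadjusted p, the most abundant gene of each marker list and the 5 genes most correlated with the subunit mean. Some genes that this rule takes are not reported here. Others are named where a count was small, after their values were seen. Promoters came from RefSeq (GRCm38.p6) and gene spans from GENCODE M21.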

Additional observations from a re-analysis of the deposited data

How the results depend on the processing

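The 10 subunit genes stayed above an adjusted p of 0.05 under every alternative, and their log2 fold changes kept a positive sign in 140 of 149 values. The signs that turned were those of Gria2 (-0.0438), Gria3 (-0.131), Gria4 (-0.0664) and Grin3a (-0.0428) under scaling to the neuron markers, of Gria3 (-0.0404) and Gria4 (-0.0108) without control replicate 2, and of Gria3 (-0.0416), Gria4 (-0.012) and Grin3a (-0.000683) with both, an alternative chosen after seeing the data. The cause was not tested. With a minimum mean of 1 FPKM, Grin2c was not tested. When 1 library was left out, Gria3 lay between -0.0404 and 0.251 and Gria4 between -0.0108 and 0.348, both highest without control replicate 1. Gria1 lay between 0.11 and 0.50, Gria2 between 0.06 and 0.32, Grin1 between 0.07 and 0.49, Grin2a between 0.04 and 0.48, Grin2b between 0.15 and 0.40, Grin2c between 0.22 and 0.33, Grin2d between 0.23 and 0.39 and Grin3a between 0.00 and 0.34, each lowest without control replicate 2. The median of the 10 was 0.0367 under neuron scaling.

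Genes with an adjusted p under 0.05 numbered 0, or between 0 and 2 when 1 library was left out, and 2 with neuron scaling and without control replicate 2. Genes higher at an unadjusted p under 0.05 numbered 581, and 882 with no filter, where more genes were tested, 338 after rescaling to the same total and 38 under neuron scaling, and between 214 (without SMA replicate 3) and 1040 (without control replicate 3) when 1 library was left out. Genes lower numbered 409, between 125 (without SMA replicate 3) and 862 (without control replicate 2) when 1 library was left out, and 675 with neuron scaling and without control replicate 2. Against 581 higher and 409 lower, the scalings gave 338 and 386 (same total), 529 and 565 (median ratio), 662 and 335 (quantile) and 38 and 301 (neuron). Subunit genes higher at that level numbered 1, 2 with no filter, 0 after rescaling to the same total or to the neuron markers, and between 0 and 2 when 1 library was left out. List genes higher numbered 2 of 73 tested, 0 under the same 2 scalings, and 3 with no filter (of 75 tested), under median ratio scaling and with neuron scaling and without control replicate 2, where 3.45%, 3.09% and 4.07% of all genes tested were higher. They numbered between 0 and 18 when 1 library was left out, 18 of 73 without control replicate 3, where 6.07% of all genes tested were higher. List genes lower numbered 0, between 0 and 1 when 1 library was left out, and 1 with neuron scaling and without control replicate 2.

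With the replicate number as a replicate block, 356 genes were higher and 303 lower at an unadjusted p under 0.05, 0 passed an adjusted p of 0.05, and 0 of the subunit genes were higher at an unadjusted p under 0.05. Deviations of libraries with the same number correlated at -0.04, 0.02 and 0.08 over genes, and those with different numbers at between -0.055 and 0.043. With 3 libraries per group, control replicate 2 among them, these values cannot show whether the numbers pair the libraries.

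With quantile normalization the difference in the Gria2 share was 0.17 percentage points. When 1 library was left out the differences in share ranged from -0.92 to 0.84 points for Gria2, from -0.93 to 0.43 for Gria4, from -1.78 to 1.38 for Grin2a, from -0.78 to 0.60 for Grin2b and from -0.81 to 1.39 for Grin2d. The differences in log2 ratio ranged from -0.0286 to 0.0988 for Grin1 to its partners, from -0.0932 to 0.0373 for AMPA genes to the neuron markers and from -0.0209 to 0.0918 for NMDA genes to the neuron markers. The shares of Gria1 (0.71 to 1.96), Gria3 (-1.23 to -0.42) and Grin2c (0.13 to 0.23) and the ratio of AMPA to NMDA genes (-0.11 to -0.05) kept their sign. FPKM holds no counts, so the error of low values such as those of Grin2c could not be separated from other spread.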
